A study of Mus musculus with 40 samples.

Results

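The genes described here encode the nuclear subunits of the mitochondrial respiratory chain and of ATP synthase. They were taken by symbol from the deposited fold change table: every gene whose symbol starts with Ndufa, Ndufb, Ndufc, Ndufs, Ndufv, Uqcr, Cox4, Cox5, Cox6, Cox7, Cox8 or Atp5, together with Sdha, Sdhb, Sdhc and Sdhd. Ndufaf genes, which encode assembly factors, and the muscle and brown fat isoforms Cox7a1 and Cox8b were left out by the rule. This gave 84 genes of the 29411 gene symbols on the array. By symbol, 38 counted as complex I, 4 as II, 7 as III, 17 as IV and 18 as ATP synthase (complex V). Ndufa4 and Ndufa4l2 thus stand with complex I. Where a gene had several probes, the probe with the highest mean log2 intensity over the 38 arrays with consistent labels stood for it, and 60 genes had 1 probe and 24 several.

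Complex I takes electrons from NADH and complex II takes them from succinate. Complex III passes them on to cytochrome c, and complex IV hands them to oxygen. The proton gradient built on the way drives ATP synthase, and fat cells, brown fat cells above all, and muscle fibres are known for their mitochondrial content, while resident immune and stromal cells carry less of it.

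The samples were stromal vascular cells of subcutaneous fat of C57BL/6J mice, weaned at 3 to 4 weeks of age before the diets began. LFC mice ate a normal diet with 10% of calories from fat, and HFC mice a high-fat, high-sucrose diet with 60% of calories from fat. HF5, HF20 and HF75 mice ate that second diet with 5, 20 or 75 µg of the botanical formulation KAL-1. LFC and HFC were each held by 11 arrays (days 1, 6, 10 and 14 and weeks 0, 3, 6, 9, 12, 15 and 18), HF5 by 6 (weeks 3 to 18), and HF20 and HF75 by 5 each (weeks 3 to 15). Each group had 1 array per time label, so the time labels served as the pairs of a comparison. In the study's methods weeks count from day 14, so that week 0 and day 14 are the same age. The labels do not say how many mice an array stands for, so the p-values measure only the spread between these samples. A further 2 arrays of week 18 had titles and sources that conflict and stand in no group.

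Levels are log2 intensities relative to the 75th percentile of the same array, so a level of 0 means a spot as bright as that percentile. Such levels are compared between arrays for 1 probe at a time, never between probes. A gene counted as called where its adjusted p was under 0.05 in limma with Benjamini-Hochberg adjustment over all genes tested. Tested were genes that stood well above background on 50% or more of a group's arrays, in either group.

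The submitters describe the cells also as infiltrating macrophages, and macrophage markers were present on nearly all arrays. Emr1, the gene of the F4/80 antigen, was well above background on 37 of 38 arrays, with levels of -0.01 to 3.25 (median 1.97), and Cd68 and Csf1r were on 37 each. Fat cell markers were present as well. Adipoq, the adiponectin gene, was well above background on 35 arrays and ran from -6.79 to 7.22 (median 3.14), and Plin1, which coats fat droplets, on 36 arrays, from -6.73 to 7.37 (median 0.90). Acta1, the actin of skeletal muscle, was well above background on all 38 arrays, from -5.22 to 6.80 (median 2.75). The arrays therefore hold RNA of several cell types, and in such bulk samples fewer cells of a type and less RNA per cell cannot be told apart.

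LFC arrays of 3 time labels stood apart from the rest in quality or in cell type markers. On LFC week 3 the 75th percentile of intensity was 7.86, 16.8% of spots were well above background, and 60 of the 84 members were. On LFC day 14 9104 spots were marked as outliers, and its ranks correlated with those of other arrays at a median of 0.471. On LFC week 18 the summed intensity of the fibroblast list was 8.23 and that of the adipocyte list 31.0, both in units of the 75th percentile. Adipoq stood there at -6.79, the level to which values near background were set on that array, so it is no measured level. These arrays stayed in the comparisons.

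Of the 84 members, 47 were well above background on all 38 arrays and 80 on at least 36. The other 4 were the complex II anchor Sdhc, well above background on 35 of 38 arrays, and 3 paralogs with narrow expression, Cox7b2 on 2, Cox8c on 9 and Cox4i2 on 13. The opposite limit also applied, since 53 members had a saturated spot on at least 1 array, which caps their level there. All 84 were matched by gene identifier to RefSeq, where 6 carry another current symbol. Among these Atp5s, Atp5sl and Cox4nb are now Dmac2l, Dmac2 and Emc8, which are not subunits of the complexes, and Atp5l2 is listed as a pseudogene (Atp5l2-ps). They were kept, as the rule goes by symbol.

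In complex I, Ndufs1, an iron-sulfur subunit on the path of electrons from NADH, had levels from 0.48 on LFC day 14 to 6.37 on HFC day 1, with a median of 2.88 over the 38 arrays. Ndufv1, the subunit that binds NADH, ran from 1.21 to 7.20 (median 4.14), with its top on LFC day 6. Ndufa9, an accessory subunit of the arm facing the matrix, ran from 0.56 to 6.40 (median 3.26). These 3 genes thus had their lowest values on the same array, LFC day 14.

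In complex II, Sdha, the flavoprotein that oxidises succinate, ran from -1.23 on LFC day 14 to 5.18 on HFC day 1 (median 0.93), and Sdhb, its iron-sulfur partner, from 0.54 on LFC week 3 to 6.27 (median 2.23). The membrane anchors Sdhc and Sdhd ran from -2.44 to 4.41 (median 1.62) and from 1.62 to 6.10 (median 2.85). These 2 anchors were added after their values were seen, so that complex II could be shown whole.

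In complex III the core proteins Uqcrc1 and Uqcrc2 had ranges of 0.98 to 7.20 (median 3.17) and 0.70 to 6.66 (median 4.03). Uqcrfs1, the Rieske iron-sulfur protein that takes electrons from ubiquinol, ran from 0.75 to 6.02 (median 3.39). In complex IV, Cox4i1, the common form of subunit 4, ran from 3.33 to 8.16 (median 5.64), with its top on HFC day 6. The subunits Cox5a and Cox5b ran from 2.26 to 7.54 (median 4.93) and from 2.68 to 7.77 (median 5.08). In ATP synthase, Atp5a1 and Atp5b, the alpha and beta subunits of the catalytic head, ran from 1.76 to 7.26 (median 4.88) and from 2.77 to 7.97 (median 5.88). All 8 had their lowest value on LFC day 14, the array with many outlier spots. Without it the lowest level was 4.07 for Atp5a1 and 5.20 for Atp5b.

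Paralogs with restricted expression were read beside their common partners, each on its own scale. Ndufa4l2, a relative of Ndufa4 known to respond to low oxygen, was well above background on 36 arrays and ran from -6.21 on LFC week 18 to 3.64 on HFC day 6 (median 1.63), while Ndufa4 ran from 1.49 to 6.42 (median 3.83). Cox4i2, the lung form of subunit 4, had a median of -6.34 and a top of 0.25 on LFC week 3, the dim array. Cox6a2, the heart and skeletal muscle form of subunit 6a, ran from -4.52 on HFC week 9 to 5.42 on LFC week 9 (median -0.05). Its second highest level, 5.40, was on LFC week 6, the array with the highest summed intensity of skeletal muscle genes (1083), and LFC week 9 had 645.

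Cox6a1, the common form, ran from 4.71 to 8.57 (median 6.35) and was saturated on 32 of 38 arrays. Cox6b2, known from testis, ran from -2.68 to 0.91 (median -1.59), and Cox6b1 from -1.26 to 3.61 (median 0.02). The testis genes Cox7b2 and Cox8c had medians of -6.89 and -6.78 and tops of -0.03 each, the level to which LFC week 3 values below background were raised. Cox7b ran from 0.70 to 6.61 (median 3.34), with its top on LFC week 3 too, and Cox8a from 3.01 to 8.39 (median 5.43). Cox7a1 and Cox8b, the muscle and brown fat forms that the rule leaves out, were widely spread: Cox7a1 ran from -1.91 to 8.10 (median 1.85) and Cox8b from -6.79 to 7.87 (median 1.51).

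The members varied together over the arrays. The median level of the members was 5.97 on HFC day 1, 5.93 on LFC day 6 and 5.81 on HFC day 6. It was 5.41 on LFC week 12, 5.19 on LFC week 9, 4.96, 4.77 and 4.70 on HF20 weeks 15, 12 and 9, 4.70 on HF5 week 9 and 4.53 on HFC week 9. On the other 28 arrays it was 4.09 or less, with a median of 3.52 and its lowest value, 1.33, on LFC day 14, where it was 3.02 after quantile normalization. Of the 84 members, 60 had their lowest level on LFC day 14. Saturated were 47 of the 84 on HFC day 1, 43 on LFC week 12, 18 on LFC day 6 and 2 on HFC day 6. The medians of HFC day 1 and LFC week 12 are therefore capped, and the order among the 10 arrays is not read. The same 10 arrays had the highest member medians after quantile normalization and after normexp background correction.

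**Figure D1:**
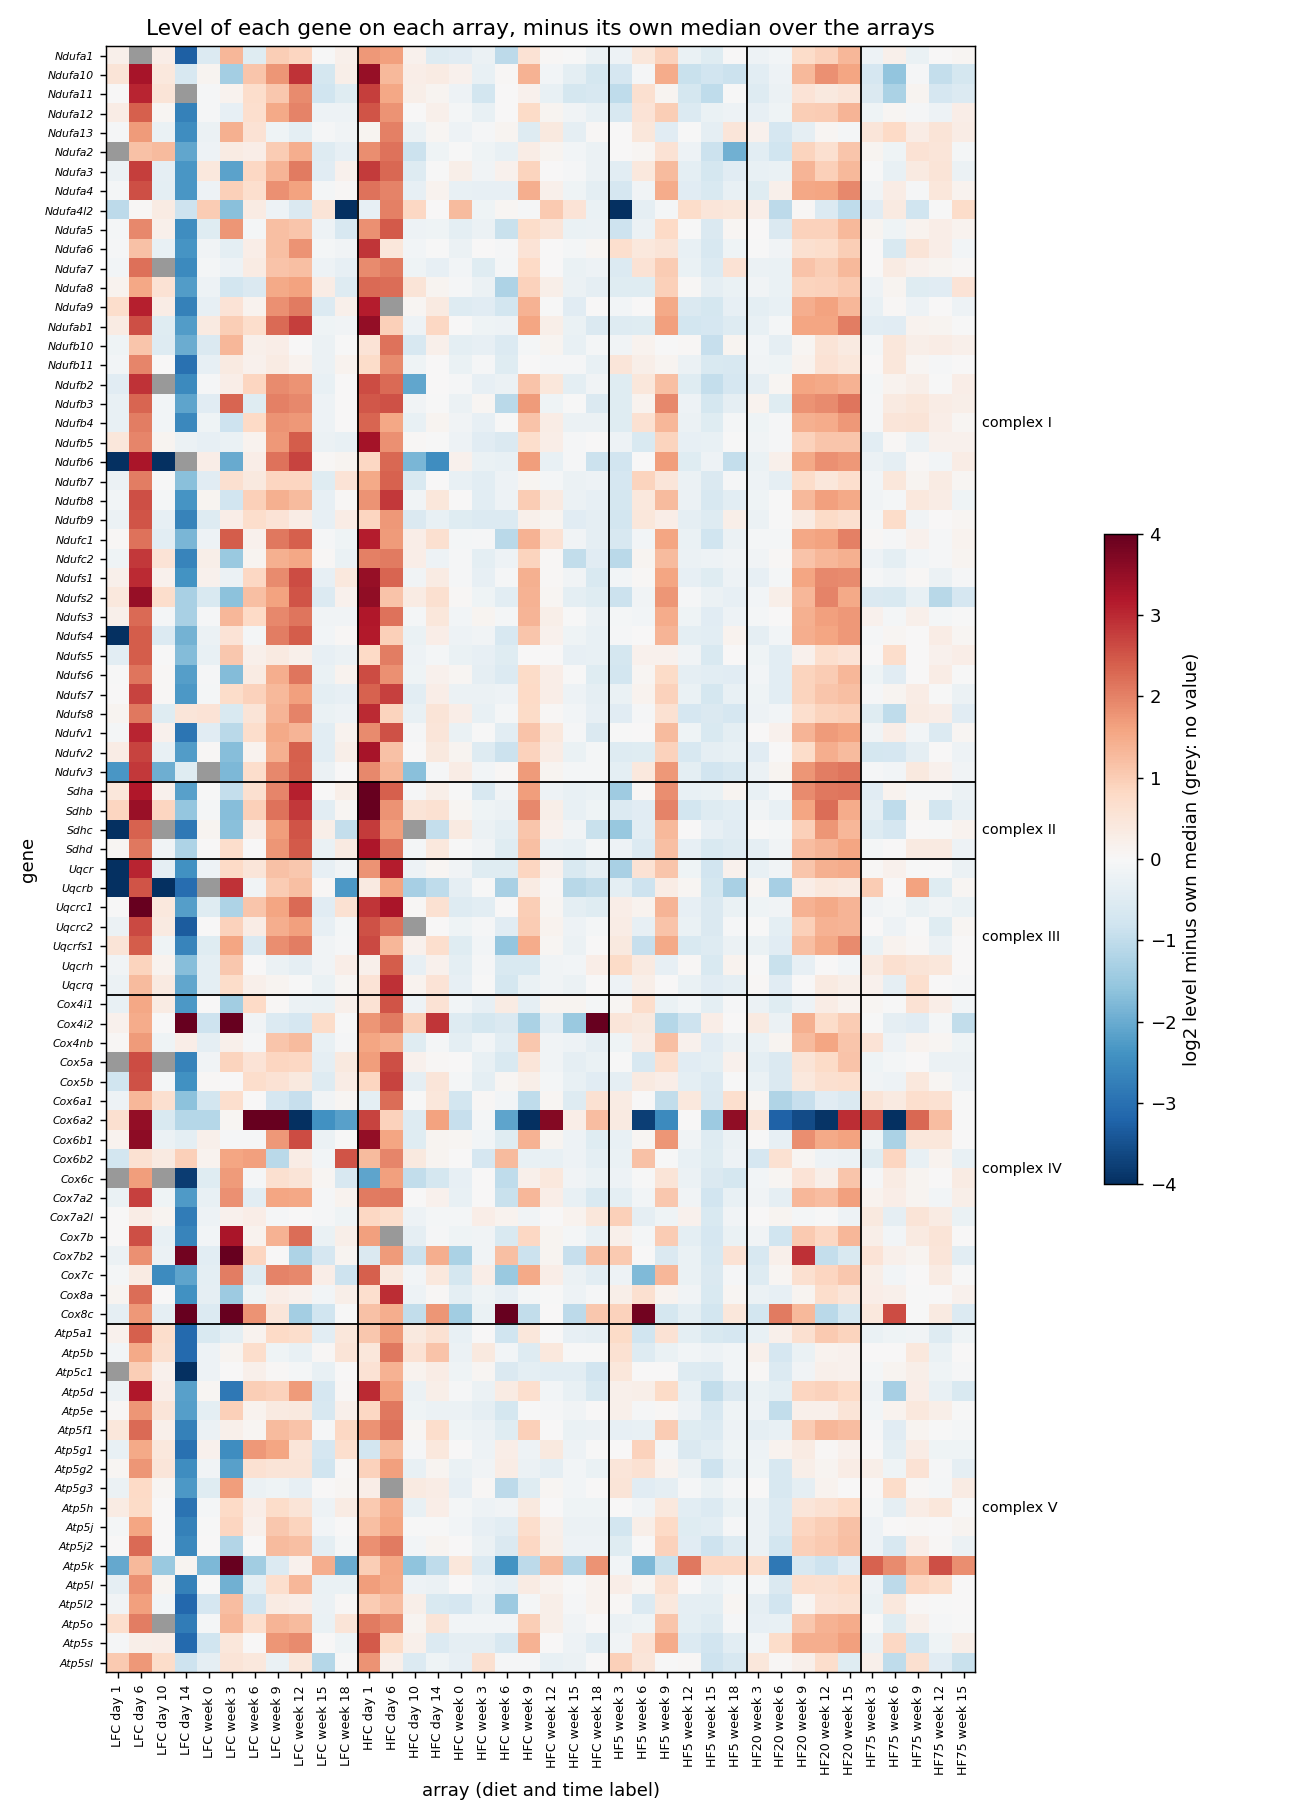
Level of each member on each of the 38 arrays with consistent labels, relative to that gene's median over those arrays (log2), with the genes grouped by complex. Arrays are ordered by group and time label, and grey marks no value.

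On those 10 arrays most members stood above their own median over the 38 arrays. All 83 members with a value did so on LFC day 6, 74 of them at least 2-fold, and all 81 did so on HFC day 6, 72 of them at least 2-fold. On HFC day 1 79 of 84 were above, 59 at least 2-fold, on LFC week 9 73 were above and 51 at least 2-fold, and on LFC week 12 70 and 50. The 3 HF20 arrays of weeks 15, 12 and 9 had 50, 38 and 35 members at least 2-fold above. On HF5 week 9 66 were above and 34 at least 2-fold, and on HFC week 9 60 and 27. On LFC day 14 the reverse held, with 7 of 82 above and 69 at least 2-fold below. Its median level over all genes was -0.85, and these counts were not taken after quantile normalization.

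The complexes did not shift by the same amount on each array. On HFC day 1 the median distance of the members from their own median was 3.64 for complex II and 2.33 for complex I, against 1.80, 1.28 and 1.07 for complexes III, IV and V. On LFC week 12 it was 2.67 for complex II, 1.80 for complex I and 0.31 for complex IV. On LFC day 6 the values were closer, at 2.41, 2.78, 2.50, 1.72 and 1.69 for complexes I to V. The part of saturation in the order of the complexes was not tested.

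Fat cell genes were high on the same arrays as the members. The same 10 arrays that had the highest member medians had the highest median levels of the adipocyte list, 5.32 to 6.81, and the highest levels of Adipoq, while on the others the adipocyte median was 4.36 or less. At the low end the order differed: LFC week 18 had the lowest adipocyte median, -3.06, with a member median of 3.56, and LFC day 14 had an adipocyte median of 1.86. In their summed intensity the 14 adipocyte genes stood at 2043 on HFC day 6 and 1663 on LFC day 6, in units of the 75th percentile. The sums were 785 on HF20 week 12, 745 on HFC day 1, 680 on HF20 week 15, 636 on LFC week 9, 570 on LFC week 12, 561 on HF20 week 9, 546 on HF5 week 9 and 486 on HFC week 9. Of the 14 genes, a median of 14 per array were well above background, with the fewest, 6, on LFC week 3. The part of fat cell RNA in the member levels was not tested.

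Other mitochondrial genes had the same 10 arrays at their top: genes of the tricarboxylic acid cycle, electron carriers and nucleotide transporters, assembly factors and mitochondrial ribosomal proteins, each 10 of 10. Regulators of mitochondrial biogenesis shared 9 of the 10, brown and beige fat genes 6, and glycolysis genes and uncoupling proteins 5 each. Skeletal muscle genes shared 4, macrophage, fibroblast and erythroid genes 2 each, and pericyte and endothelial genes 1 each. T cell, B cell and epithelial genes and the immediate early genes of the tissue digestion response shared 0. These counts describe an order of arrays and were not tested.

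**Figure D2:**
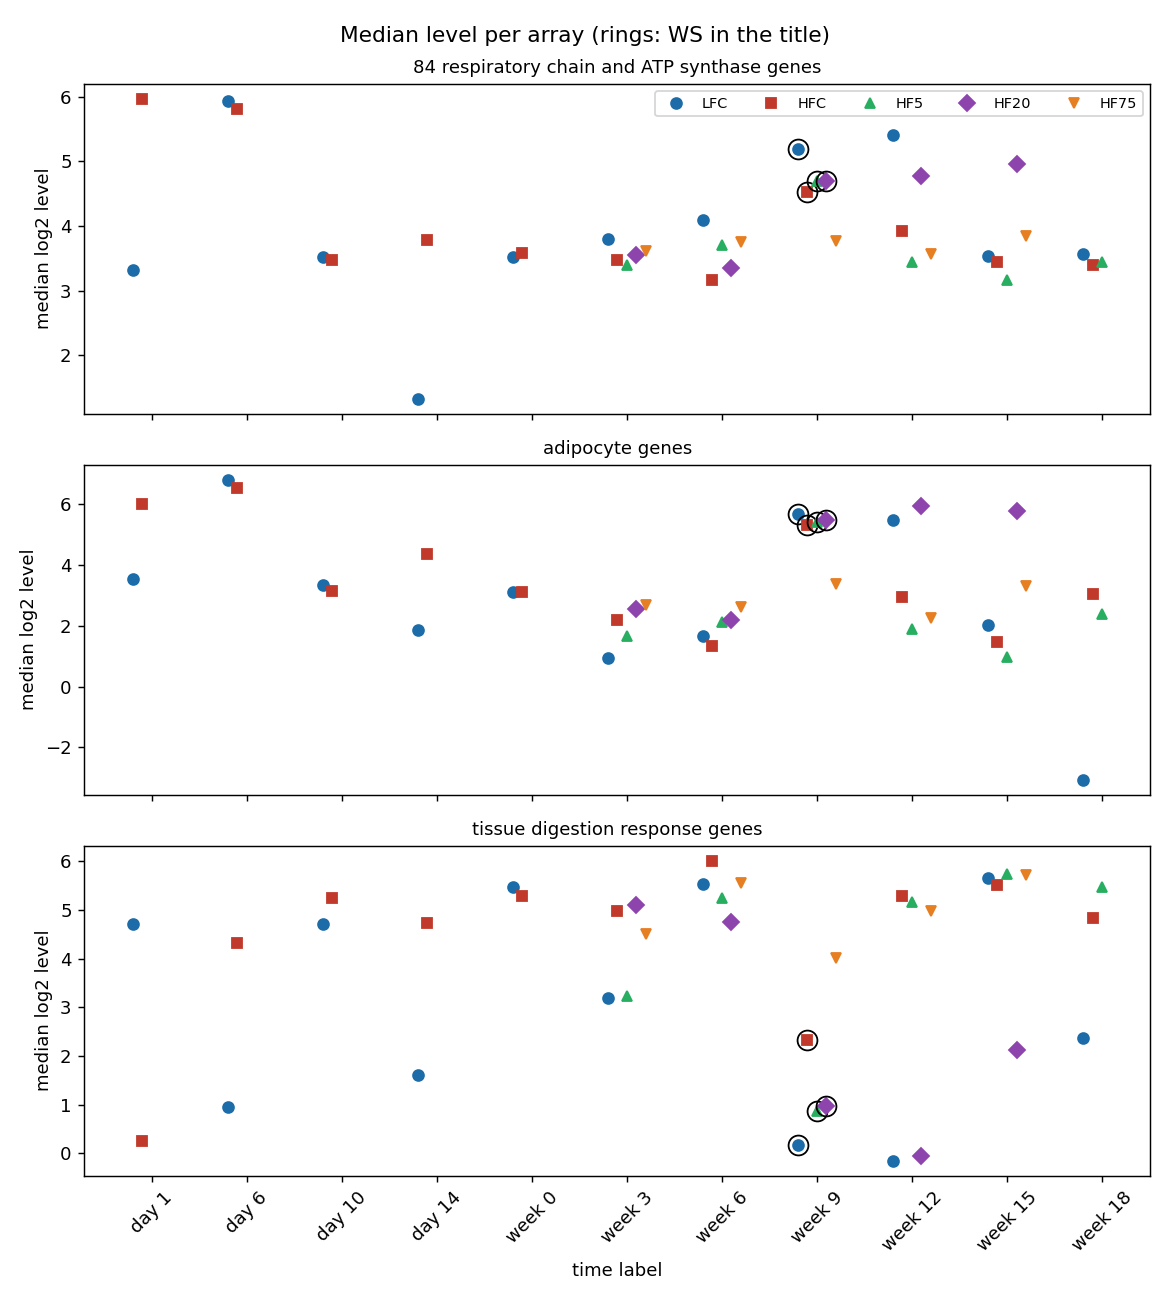
Median log2 level per array of the members (top), the adipocyte list (middle) and the tissue digestion response list (bottom), by time label and group. Rings mark the arrays of week 9 with WS in the title.

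Between the diets, the members showed no shift that held over the time labels. Sdha had levels of 0.29 to 5.18 (median 0.87) on the 11 HFC arrays and of -1.23 to 4.11 (median 1.16) on the 11 LFC arrays. The groups overlap, and the difference of HFC against LFC was 0.03 (SE 0.51, adjusted p = 0.994), with 3 of 11 pairs higher. Atp5b stood at 5.36 to 7.97 (median 6.28) with HFC and 2.77 to 7.41 (median 5.94) with LFC. These groups overlap too, and the difference was 0.42 (SE 0.40, adjusted p = 0.926), with 5 of 11 pairs higher. Without day 14, whose LFC array is doubted, the difference was 0.03 (SE 0.22). The other probes of Atp5b read -0.32 to 0.17 over all pairs, so no direction is given for it.

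Of 82 members tested, 0 were called by limma, as were 0 of 20874 genes in all (0 percent), and at an unadjusted p under 0.05 stood 1 member and 643 genes (3.08%). The members' median difference was 0.09, with 55 of 82 higher with HFC, against -0.03 over all genes, and it turned to -0.03 after quantile normalization and stood at 0.36 after normexp correction. By complex the median was 0.08 for I, 0.05 for II, 0.20 for III, -0.05 for IV and 0.13 for V.

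The member with an unadjusted p under 0.05 was Ndufa4l2, the relative of Ndufa4 known to respond to low oxygen. Its levels were 1.31 to 3.64 (median 1.70) with HFC and -6.21 to 2.64 (median 1.44) with LFC. The groups overlap, and the lowest value belongs to LFC week 18. The difference was 1.36 (SE 0.60, adjusted p = 0.926), with 10 of 11 pairs higher and pair differences from -0.26 to 7.58. Without week 18, the pair with 7.58, it was 0.74 (SE 0.30, adjusted p = 0.961).

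Single pairs differed far more than the groups did, and in both directions. At day 1 77 of 80 members were higher with HFC, 61 of them at least 2-fold, with a median difference of 2.08. At day 14 76 of 82 were higher (median 2.47), where the LFC array is the one with 9104 outlier spots, the median over all genes was 0.75, and the member median was 0.75 after quantile normalization. At week 12 the order was reversed, with 14 of 84 higher, 45 at least 2-fold lower and a median of -1.15. At weeks 6 and 9 3 of 84 were higher each, with medians of -0.68 and -0.40 (-0.12 at week 9 after quantile normalization). The remaining pair medians were -0.21, -0.15, 0.01, -0.55, 0.04 and -0.23 at days 6 and 10 and weeks 0, 3, 15 and 18, beside 0.37, -0.03, 0.02, -1.52, -0.03 and 0.09 over all genes. At week 3 the members thus lay above all genes, and their median was -0.15 after quantile normalization.

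Sdha shows this pattern in 1 gene: its pair difference was 3.79 at day 1, 2.39 at day 14 and -3.30 at week 12, and between -0.81 and 0.32 at the other 8 time labels. Adipocyte genes differed the same way at those 3 labels, with pair medians of 2.42, 2.34 and -2.55, but at week 18 their median was 6.54 where that of the members was -0.23. Adipoq differed by 1.27 (SE 0.98, adjusted p = 0.926) over all pairs and by 0.28 (SE 0.58, adjusted p = 0.966) without week 18. Genes of the tissue digestion response went the other way at 2 of these labels: their summed intensity was 27 on HFC and 495 on LFC at day 1, and 663 and 17.3 at week 12. At day 1 the T cell list had a median level of -4.10 with HFC and 1.91 with LFC. Skeletal muscle genes had pair medians of 1.34, 2.71 and 9.38 at days 1 and 14 and week 12. At weeks 6 and 9 they had -7.45 and -9.78. Over all pairs 13 of 13 digestion response genes were higher with HFC (median 1.37), 9 of 9 fibroblast genes (1.27), 7 of 7 endothelial genes (1.27) and 10 of 10 pericyte genes (1.02), with 0 called in each. At week 18 LFC had median levels of -5.55, -4.81 and -6.45 for the fibroblast, endothelial and pericyte lists. HFC had 5.26, 3.23 and 1.98, so this 1 pair enlarges those differences. The part of these lists and of fat cell RNA in the pair differences was not tested.

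With the lowest dose, HF5, no member passed the test against HFC. The median difference of the members was 0.00, though it moved with the scaling. Sdhb, the iron-sulfur subunit of complex II, had levels of 1.49 to 4.21 (median 1.75) with HF5 and 1.92 to 4.16 (median 2.06) with HFC. The groups overlap, and the difference was -0.32 (SE 0.19, adjusted p = 0.938), with 1 of 6 pairs higher. Ndufs1 stood at 2.39 to 4.46 (median 2.72) with HF5 and 2.27 to 4.29 (median 2.78) with HFC, a difference of 0.03 (SE 0.18, adjusted p = 0.989).

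Of 81 members tested, 0 were called by limma, as were 0 of 20842 genes (0 percent), and at an unadjusted p under 0.05 stood 0 members and 1122 genes (5.38%). The median difference of the members was 0.00, with 39 of 81 higher, against -0.01 over all genes. It was -0.17 for complex II and between -0.06 and 0.05 for the other complexes. After normexp correction 66 of 81 members were higher, with a median of 0.18 against -0.22 over all genes. After quantile normalization 33 of 81 were higher, with a median of -0.02 against 0.00. Pair medians at weeks 3, 6, 9, 12, 15 and 18 were -0.02, 0.45, 0.12, -0.39, -0.31 and 0.04.

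With the middle dose, HF20, most members were higher than with HFC, and the excess lay at weeks 12 and 15. Ndufv1, which binds NADH in complex I, had levels of 4.14, 4.30, 5.49, 5.84 and 5.75 with HF20 at weeks 3, 6, 9, 12 and 15, and of 4.11, 3.73, 5.28, 4.55 and 4.10 with HFC. The groups overlap, with and without week 9, and the difference read 0.75 (SE 0.31, adjusted p = 0.395), with 5 of 5 pairs higher. The probe was saturated on 2 of 5 HF20 and 1 of 5 HFC arrays, so this size is not exact, and the other probe read 0.63. Sdha stood at 0.61, 0.86, 2.82, 3.04 and 3.06 with HF20 and 0.29, 0.80, 2.59, 0.73 and 0.63 with HFC. Here too the groups overlap, with and without week 9, and the difference was 1.07 (SE 0.46, adjusted p = 0.395), with 5 of 5 pairs higher.

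Of 82 members tested, 0 were called by limma, as were 0 of 22088 genes (0 percent). At an unadjusted p under 0.05 stood 5 members and 2689 genes (12.2%). The 5, named after their values were seen except for the core gene Ndufv1 and the paralog Cox4i2, read higher with HF20 and also included Atp5s (1.00), Ndufb5 (0.62) and Ndufa1 (0.68), each with an adjusted p of 0.395. Of the 5, Cox4i2 was read against values not well above background, and its direction turned with normexp correction. Of the 82, 73 were higher, with a median of 0.49 against 0.08 over all genes. The median was 0.62 for complex I, 0.71 for II, 0.57 for III, 0.36 for IV and 0.30 for V. In single pairs the member median was 0.03, 0.05 and 0.17 at weeks 3, 6 and 9, then 0.85 at week 12 and 1.38 at week 15.

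Cox4i2, the lung form of subunit 4 of cytochrome c oxidase, was well above background on 4 of 5 HF20 arrays and 0 of 5 HFC arrays. Its HFC values are therefore no measured levels, and no size or ratio is given for it. Cox6a1 was saturated on all 10 arrays, and no ratio is given for it.

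Adipocyte genes were higher at the same weeks: 13 of 14 were higher with HF20 (0 called), with a median of 1.80, and their pair medians were 0.16, 0.32, 0.22, 2.94 and 4.40. In summed intensity the adipocyte list stood at 216, 90.2, 561, 785 and 680 on the HF20 arrays of weeks 3 to 15 and at 185, 114, 486, 248 and 120 on the HFC arrays. Tricarboxylic acid cycle genes were higher in 19 of 19 (median 0.81). Genes of the tissue digestion response were lower in 13 of 13 (median -2.52, 0 called). Lower too were 12 of 13 macrophage genes (-0.61), 6 of 8 T cell genes (-1.74), 5 of 5 B cell genes (-1.20) and 7 of 7 endothelial genes (-0.68), with 0 called in each. The part of these lists in the member differences was not tested.

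With the highest dose, HF75, a single member passed the test. Atp5k, which encodes subunit e in the membrane part of ATP synthase, had levels of 6.99, 6.53, 6.02, 7.20 and 6.49 with HF75 at weeks 3, 6, 9, 12 and 15, and of 4.08, 2.24, 3.57, 5.91 and 3.47 with HFC. Every HF75 value lies above every HFC value, so the groups do not overlap. The gene rose by 2.79 (SE 0.42, adjusted p = 0.0372), with 5 of 5 pairs higher and pair differences of 1.28 to 4.29. This reads as 6.91-fold, but the size is not exact. The spot was saturated on 3 of the 5 HF75 arrays and on 0 of the 5 HFC arrays, which caps the HF75 levels. Over the alternatives the difference ran from 2.15 to 3.17.

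Over all ATP synthase genes, Atp5k included, 9 of 18 were higher, with a median of 0.00. Atp5a1 of the catalytic head had levels of 4.37 to 4.74 (median 4.70) with HF75 and 4.07 to 5.32 (median 4.88) with HFC. The HF75 range lies inside the HFC range, and the difference was -0.12 (SE 0.27, adjusted p = 0.904). Atp5b read -0.01 (SE 0.30, adjusted p = 0.995) at the probe used, which was saturated on 2 of the 5 HFC arrays, but -1.05 and -0.98 at its other probes, so the size of its difference is not settled.

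Atp5k was also high on arrays without HF75. At or above the lowest HF75 level, 6.02, it stood on 5 of them: 9.33 on LFC week 3, the dim array, 6.73 on HF5 week 12, 6.42 on HFC week 18, 6.18 on HFC day 6 and 6.09 on LFC week 15. With HF5 it had levels of 4.52, 2.82, 3.75, 6.73, 5.44 and 5.45 at weeks 3 to 18, and with HF20 of 5.34, 1.77, 3.99, 3.79 and 4.17 at weeks 3 to 15. Its difference from HFC was 0.50 with HF5 and -0.05 with HF20, neither called. Whether the difference with HF75 exceeds those with the other doses was not tested.

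**Figure D3:**
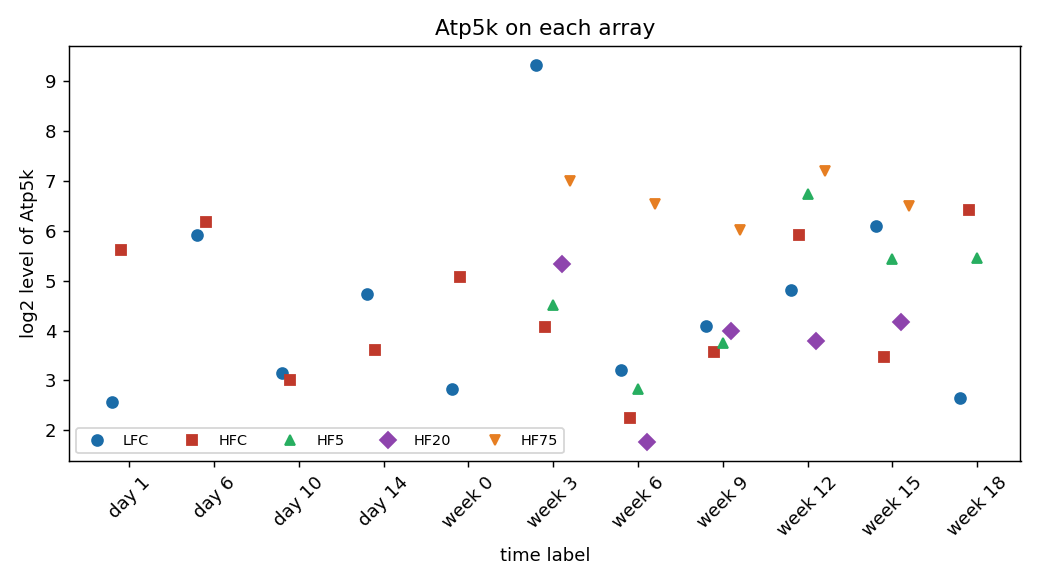
Level of Atp5k on each of the 38 arrays with consistent labels, by time label and group. Each symbol is 1 array.

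Of 81 members tested, this 1 rose (1.23%) and 0 fell, beside 189 of 20658 genes that rose (0.915%) and 38 that fell (0.184%), 227 in all. The members' share is close to that of all genes and is no result about the members as a group. At an unadjusted p under 0.05 stood 7 members (8.64%) and 2977 genes (14.4%). The median difference of the members was 0.01, with 43 of 81 higher, against 0.02 over all genes, and by complex it was -0.06, -0.27, 0.11, 0.07 and 0.00 for I to V. The count turned with the scaling. Quantile normalization gave 25 of 81 higher (median -0.11, against -0.02 over all genes). Normexp correction gave 57 of 81 (median 0.15, against -0.17). Pair medians were 0.13, 0.28, -0.59, -0.05 and 0.15.

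Sdhb, the core gene with the lowest difference in this comparison, had levels of 1.21 to 2.32 (median 1.87) with HF75 and 1.92 to 4.16 (median 2.05) with HFC. The groups overlap, and the difference was -0.76 (SE 0.32, adjusted p = 0.359), with 1 of 5 pairs higher. The HFC array of week 9, whose title carries the letters WS, holds the top value, and the HF75 array of week 9 does not carry them. The Sdhb pair difference was -1.84 at week 9 and between -0.98 and 0.03 at the other weeks. Over the alternatives the Sdhb difference ran from -0.95 to -0.48. Skeletal muscle genes were higher in 13 of 14 (median 1.07, 0 called) and epithelial genes in 6 of 6 (1.54, 0 called). The muscle pair medians were 2.15, -1.31, 8.49, -2.80 and 0.44 at weeks 3, 6, 9, 12 and 15. Their direction thus differed between pairs, and the largest was that of week 9, with the WS array of HFC. Lower were 11 of 13 macrophage genes (-1.03, 0 called), 4 of 4 erythroid genes (-1.37, 0 called) and 7 of 9 fibroblast genes (-0.83), of which 1 was called. Their part in the result was not tested.

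The Atp5k call was lost without week 3 (2.76, adjusted p = 0.179), week 6 (2.41, 0.0834), week 9 (2.87, 0.0817) or week 15 (2.73, 0.126), and kept without week 12 (3.17, 0.0496). It was also lost after quantile normalization (2.36, 0.067), with every gene tested (0.0644) and without the time label as replicate block (0.107), and over 14 alternatives the adjusted p ran from 0.00642 to 0.806.

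Over time, from the day-labelled phase with week 0 to weeks 3 to 18, no member passed the test. Atp5b had levels of 5.36 to 6.57 (median 5.91) on the 12 late arrays and 2.77 to 7.97 (median 6.40) on the 10 early ones. The early range encloses the late range, and the difference was -0.18 (SE 0.43, adjusted p = 1), with -0.44 to -0.33 at its other probes. Ndufs1 stood at 2.27 to 5.47 (median 2.88) late and 0.48 to 6.37 (median 3.07) early, again with the early range the wider, a difference of -0.25 (SE 0.59, adjusted p = 1). Early arrays held both the highest and the lowest values of most members.

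Of 82 members tested, 0 were called by limma, beside 1 of 21603 genes (0.00463 percent), and at an unadjusted p under 0.05 stood 0 members and 982 genes (4.55%). The members' median was -0.16, with 28 of 82 higher late, against 0.02 over all genes. That median was 0.28 without day 6 and -0.50 without day 14, so its direction turned on 1 time label. Adipocyte genes were lower late in 13 of 14 (median -1.50, 0 called), and Ucp1, the uncoupling protein of brown fat, differed by -4.40 (SE 1.36, adjusted p = 0.777). Their part in the result was not tested.

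Nearly all members, and most of all genes tested, had a lower HFC against LFC difference in the late phase than in the early phase. No member passed the test of that change. For Ndufa9 the late minus early value was -2.03 (SE 0.81, unadjusted p = 0.0273, adjusted p = 0.756). Uqcrc2 had -1.97, Uqcrfs1 -1.79 and Cox5a -1.67, with unadjusted p of 0.0370, 0.0432 and 0.0485 and the same adjusted p. After quantile normalization Ndufa9, Uqcrc2 and Uqcrfs1 had -1.61, -1.61 and -1.38, but Cox5a had -0.71. Cox5a has no pair value at days 1 and 10, Ndufa9 none at day 6 and Uqcrc2 none at day 10. The lowest value was that of Uqcrb (-3.31), a complex III subunit named after its value was seen. Uqcrb has no pair value at week 0, and its pair difference at day 1 was 5.46.

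Of 82 members tested, 0 were called by limma, as were 0 of 20874 genes (0 percent). At an unadjusted p under 0.05 stood 24 members (29.3%), all with a lower value, and 991 genes (4.75%). The median of the members was -1.31, with 80 of 82 below 0, against -0.51 over all genes, of which 27.7% were above 0. The 2 members above 0 were Ndufa4l2 (0.93) and Atp5sl (0.28), the latter named after its value was seen. By complex the median was -1.32, -1.83, -1.79, -1.14 and -1.19 for I to V. All-gene medians shift with the scaling, -0.39 after quantile normalization and 0.48 after normexp correction, beside member medians of -0.84 and -1.53.

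The early pairs of days 1 and 14 carried much of this. Without day 14, whose LFC array is doubted, the member median was -0.92 with 5 members at an unadjusted p under 0.05, and without day 1 it was -1.05 with 6. Brown and beige fat genes had a median of -2.42, adipocyte genes -0.41, T cell genes 3.81, B cell genes 3.47, fibroblast genes 1.56, macrophage genes 0.97 and genes of the tissue digestion response 1.82, with 0 called in each list. The part of these lists was not tested.

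The most members passed the test in a labelled subset of week 9. The titles of the week 9 arrays of LFC, HFC, HF5 and HF20 hold the letters WS, which the labels do not explain, and these 4 arrays were set against the 8 arrays of the same groups at weeks 6 and 15. All 4 complex II genes rose on the WS arrays, with 6 genes of complex I, 3 of complex IV and 1 of ATP synthase. The complex IV count goes by symbol and includes Cox4nb, which is not a subunit. No gene of complex III was called, and no member fell. These calls are fragile: the count of 14 was 0 with slide or time label as a random block, 0 without week 6 and 52 without week 15. It was also 0 without the LFC, the HFC or the HF5 array of week 9, and 26 without that of HF20. Without a filter, or with all other arrays of weeks 3 to 18 as reference, it was 0 as well. The reference leaves out week 12, with member medians of 5.41, 3.93, 3.45 and 4.77 for LFC, HFC, HF5 and HF20.

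Sdhb had levels of 4.41, 4.16, 4.21 and 3.83 on the WS arrays of LFC, HFC, HF5 and HF20, and of 1.72 to 3.71 (median 1.93) on the 8 others. The groups do not overlap, and Sdhb rose by 1.89 (SE 0.40, adjusted p = 0.0406), or 3.71-fold. Ndufa9 stood at 5.08, 4.66, 4.78 and 4.72 against 2.52 to 4.58 (median 2.89). Again the groups do not overlap, and it rose by 1.71 (SE 0.35, adjusted p = 0.0404), or 3.26-fold.

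Ndufb3, an accessory subunit of the membrane arm of complex I, stood at 5.60, 5.30, 5.51 and 5.41 against 2.52 to 5.74 (median 3.27), and rose by 1.94 (SE 0.49, adjusted p = 0.0468). Sdha stood at 2.87, 2.59, 2.78 and 2.82 against 0.63 to 3.06 (median 0.90), and rose by 1.58 (SE 0.39, adjusted p = 0.0467). For these 2 genes no WS array lay above the highest other array, so the groups overlap. Cox6b1, a complex IV subunit on the side of cytochrome c, stood at 1.76, 1.41, 1.78 and 1.89 against -0.49 to 1.62 (median -0.20), and rose by 1.71 (SE 0.35, adjusted p = 0.0404), with 3 of 4 WS arrays above the others.

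Ndufab1, the mitochondrial acyl carrier protein, stood at 4.79, 4.11, 4.17 and 4.10 against 1.83 to 4.56 (median 2.33), and rose by 1.67 (SE 0.42, adjusted p = 0.0468). Ndufc1 stood at 5.12, 4.39, 4.60 and 4.56 against 1.93 to 5.03 (median 2.92), and rose by 1.66 (SE 0.43, adjusted p = 0.0484). Ndufb6 stood at 4.73, 4.24, 4.25 and 4.08 against 2.28 to 4.31 (median 2.59), and rose by 1.54 (SE 0.34, adjusted p = 0.0414). For each of the 3, complex I subunits all, 1 WS array lay above the highest other array, and the groups overlap. Beyond the 8 genes named by rule, Cox7a2 (1.49), Ndufs4 (1.47), Sdhd (1.45), Sdhc (1.20), Cox4nb (1.15) and Atp5f1 (1.14) rose as well, and are named here after their values were seen. For each of the 14 the highest of the 8 other arrays was HF20 week 15. Of the 14, 12 were saturated on no array of this comparison, so the sizes of the others are not exact. Ndufb3 and Atp5f1 were saturated on 3 of the 38 arrays each.

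**Figure D4:**
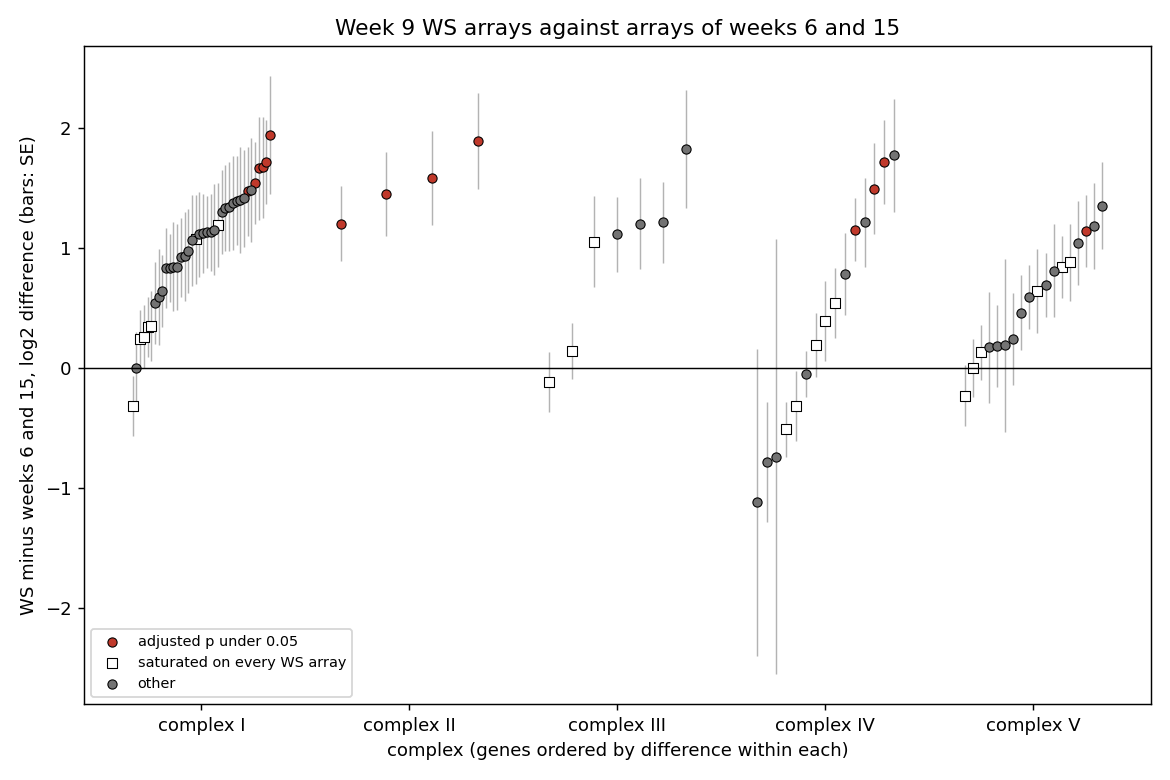
Difference of the WS arrays of week 9 against the arrays of weeks 6 and 15 (log2) for each member tested, by complex. Red circles mark an adjusted p under 0.05, white squares a spot saturated on every WS array, and bars the SE.

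In counts, 14 of 82 members tested rose (17.1%), beside 1102 of 22403 genes (4.92%), and 0 members fell beside 632 genes (2.82%). At an unadjusted p under 0.05 stood 51 members (62.2%) and 6788 genes (30.3%). Of the members 72 were higher, with a median of 0.95 against 0.04 over all genes. The median was 1.12 for complex I (37 of 38 higher), 1.51 for II, 1.11 for III, 0.39 for IV and 0.62 for V.

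Several core genes missed the threshold: Ndufs1 differed by 1.41 (adjusted p = 0.0586), Uqcrfs1 by 1.82 (0.0538), Uqcrc2 by 1.21 (0.0592), Uqcrc1 by 1.20 (0.0755) and Cox5a by 0.78 (0.162). On all 4 WS arrays 21 members were saturated, with a median of 0.26, while the 52 members saturated on no array of the comparison had a median of 1.15, with 48 higher and 12 called. The part of saturation in these medians was not tested. Ndufv1 and Atp5a1, saturated on all 4 WS arrays and on 1 of the 8 others, read 1.19 and 0.84, with 1.25 and 0.92 at their other probes, neither called. Atp5b read -0.23 at its saturated probe but 1.41 to 1.45 at its other probes, and no direction is given for it. Of the 24 genes with several probes, 21 had 1 sign at all of them. Among the paralogs Cox6a2 differed by -0.74 and Cox6b2 by -0.78, neither called. No size is given for Cox8c, well above background on 1 of the 4 WS arrays and 4 of the 8 others.

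Fat cell genes rose on the same arrays: 11 of 14, with a list median of 3.22, among them Plin1 (5.52, adjusted p = 0.0404) and Adipoq (3.84, adjusted p = 0.0439).  The summed intensity of the adipocyte list was 636, 486, 546 and 561 on the WS arrays of LFC, HFC, HF5 and HF20. At weeks 6 and 15 it was 114 and 120 with HFC, 159 and 96.2 with HF5, and 90.2 and 680 with HF20, and with LFC it was 164 at week 15 and between those of HF5 week 15 and HFC week 6 at week 6. The array with 680 is HF20 week 15, the same that held the highest level of the 14 called members among the others. The part of fat cell RNA in the member differences was not tested.

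Immediate early genes, which are known to respond to tissue digestion, went the other way. Of 13 genes 12 fell, with a median of -3.88, among them Fos (-6.09, adjusted p = 0.0287) and Junb (-2.77). Their summed intensity was 24.6, 186, 38.5 and 28.3 on the WS arrays of LFC, HFC, HF5 and HF20. At weeks 6 and 15 it was 719 and 634 with LFC, 712 and 516 with HFC, 524 and 599 with HF5, and 313 and 104 with HF20. Of the epithelial genes 5 of 6 fell (median -5.02), with Krt8 at -9.66 and Krt18 at -7.69. Their summed intensity was 0.169, 0.175, 0.202 and 0.525 on the WS arrays. The others had 214 and 29.2, 60.4 and 1.88, 134 and 46.4, and 87.4 and 1.15 for LFC, HFC, HF5 and HF20. The part of these lists in the result was not tested.

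Other mitochondrial genes rose with the members: 7 of 19 of the tricarboxylic acid cycle (median 1.38, with the citrate synthase gene Cs at 0.85), 8 of 26 assembly factors (1.07), 22 of 75 mitochondrial ribosomal proteins (1.01), and 6 of 20 electron carriers and transporters (0.86), among them Etfdh (1.98, adjusted p = 0.0430). Of 14 biogenesis regulators 2 rose (median 0.64), with Tfam at 0.56 and Nrf1 at -0.26. In glycolysis 1 gene of 20 rose and 1 fell (median 0.33). Of the 3 uncoupling proteins Ucp3 rose (4.65, adjusted p = 0.0491), and Ucp1 differed by 3.60 (adjusted p = 0.0763). Among 8 brown and beige fat genes 2 rose and 1 fell (median 2.74), and Cox8b and Cox7a1 differed by 4.55 (adjusted p = 0.0973) and 1.87 (0.168).

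Among other cell types 1 of 13 macrophage genes fell, Cd14 (-2.97, adjusted p = 0.0406), with a list median of -0.10, and 1 of 9 fibroblast genes fell (median -0.47). For skeletal muscle (14 genes, median -1.49), pericytes and smooth muscle (10, -0.47), endothelium (7, -0.23), T cells (8, -1.24), B cells (5, -1.38) and erythroid cells (4, 0.12) limma called 0 genes each.

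The WS arrays lay on 2 slides with no other arrays, and were all scanned on 1 day with no others, so label, slides and scan day cannot be told apart. All belong to week 9, which also holds the HF75 array, without the letters. Its member median level was 3.77, against 4.53 to 5.19 on the WS arrays. Its summed intensity was 507 for the digestion response and 2.64 for the epithelial list, both above those of all 4 WS arrays. With 1 such array, of another diet, week and label were not tested apart.

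Since the members varied together, their upstream sequences were read for short motifs known for regulators of these genes. RefSeq promoters (build GRCm38.p6) were at hand for 67 members, and the 250 bases before the start were searched on both strands for 4 motifs and compared with 27025 promoters in all. GCATGCGC, the core known for NRF1, stood in 8 member promoters (11.9%) against 2.32% of all. CCGGAAGT, of the ETS family with GABPA, stood in 3 (4.48%) against 2.93%. TCAAGGTCA, of the estrogen-related receptors, stood in 1 (1.49%) against 0.366%. AAGATGGC, of YY1, stood in 0 (0.00%) against 1.59%. Any of the 4 stood in 12 (17.9%) against 6.94%. None of the 4 contains another, and GCATGCGC overlaps its own reverse complement where the palindrome GCGCATGCGC stands. A match is a description, not a site.

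The NRF1 core was in the promoters of Sdhb, Atp5k, Ndufa6, Ndufa8, Ndufa11, Atp5g2, Atp5l and Cox6a1. Sdhb was called in the WS comparison and Atp5k with HF75. No other member called in either comparison had the NRF1 core in a promoter at hand. The sequences show where the core lies next to the start. The 120 bases before the start are printed, 5′ to 3′ along the gene, with the motif in capitals, for Sdhb (chr4:140961151-140961270, plus strand), Atp5k (chr5:108434400-108434519, minus strand), Ndufa6 (chr15:82354292-82354411, minus strand), Ndufa8 (chr2:36049339-36049458, minus strand), Ndufa11 (chr17:56717642-56717761, plus strand) and Atp5g2 (chr15:102671048-102671167, minus strand). In Atp5l and Cox6a1 the core lies further upstream.
Sdhb: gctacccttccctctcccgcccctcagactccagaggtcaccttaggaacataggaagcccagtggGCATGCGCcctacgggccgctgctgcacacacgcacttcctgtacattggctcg
Atp5k: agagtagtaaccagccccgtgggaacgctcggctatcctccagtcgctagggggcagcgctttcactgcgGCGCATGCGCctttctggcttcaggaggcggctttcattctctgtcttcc
Ndufa6: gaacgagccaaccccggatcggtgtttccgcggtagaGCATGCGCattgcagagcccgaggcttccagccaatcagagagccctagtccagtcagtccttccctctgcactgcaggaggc
Ndufa8: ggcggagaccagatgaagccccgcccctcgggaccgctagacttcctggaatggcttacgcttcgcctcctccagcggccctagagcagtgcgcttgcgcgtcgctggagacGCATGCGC
Ndufa11: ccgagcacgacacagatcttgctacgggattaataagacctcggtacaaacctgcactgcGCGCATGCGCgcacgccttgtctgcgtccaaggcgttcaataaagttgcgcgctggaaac
Atp5g2: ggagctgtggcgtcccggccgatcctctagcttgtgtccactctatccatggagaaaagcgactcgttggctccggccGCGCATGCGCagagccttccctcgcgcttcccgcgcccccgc

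The remaining matches are shown for their different letters, the ETS motif in Atp5h (chr11:115419920-115420039, minus strand), Uqcr (chr10:80406822-80406941, minus strand) and Uqcrh (chr4:116075071-116075190, minus strand), and that of the estrogen-related receptors in Atp5g3 (chr2:73911327-73911446, minus strand). Each of these genes encodes a subunit of ATP synthase or complex III, and none was called in a comparison. The promoters were chosen for a match to a motif, not for the level of the gene.
Atp5h: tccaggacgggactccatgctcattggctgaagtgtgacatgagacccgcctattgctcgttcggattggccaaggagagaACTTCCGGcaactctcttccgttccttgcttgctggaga
Uqcr: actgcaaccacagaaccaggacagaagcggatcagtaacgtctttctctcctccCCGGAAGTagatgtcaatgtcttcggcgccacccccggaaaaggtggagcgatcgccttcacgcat
Uqcrh: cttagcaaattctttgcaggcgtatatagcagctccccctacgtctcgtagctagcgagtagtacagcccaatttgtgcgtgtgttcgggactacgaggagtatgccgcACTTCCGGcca
Atp5g3: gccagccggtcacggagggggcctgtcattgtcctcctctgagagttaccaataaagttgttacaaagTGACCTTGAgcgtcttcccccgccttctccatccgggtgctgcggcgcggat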

How the data were processed

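Subcutaneous stromal vascular cells were measured on 40 one-colour Agilent arrays, 38 of them with consistent labels. Per the file headers, intensities were extracted with Feature Extraction 10.5.1.1, while the submitters' processing notes name version 9.1. The deposited per-array files hold intensity (gProcessedSignal, background-subtracted), and the deposited table holds the authors' log2 fold changes of each array, with LFC of that time label as the reference. Its 40 columns of values were not used here, only its symbols (40628 probes, 29411 symbols).

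Outlier spots were dropped, duplicate spots averaged and the log2 of the 75th percentile of each array subtracted. Dimmer values, those near background, were set to the array's lowest value that stood well above it. Tested genes stood well above background on 50% or more of a group's arrays, in either group. Models were fitted in limma 3.58.1 (lmFit, eBayes; statmod 1.5.0; R 4.3.3), with Benjamini-Hochberg adjustment over all genes tested and a threshold of 0.05. Tables and figures were made with Python 3.11.15, NumPy 2.4.6, pandas 2.3.3 and matplotlib 3.10.9. The steps were tested on simulated data.

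HFC was set against LFC, and each dose against HFC, with the time label as a fixed block. The pairing was checked on the data: after group means were removed, the arrays of a time label correlated above 0.1 in 8 of 11 pairs for HFC against LFC, 6 of 6 for HF5, 3 of 5 for HF20 and 3 of 5 for HF75. Late against early and the WS arrays against weeks 6 and 15 had diet as covariate, and the change of the diet difference between phases was an interaction.

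Named members were those called, at most the 8 with the largest differences per comparison and direction, the core subunits and the restricted paralogs with their partners; of other lists the most abundant or defining genes. Members and lists were chosen with earlier results of these data known. Alternatives were normexp (offset 50), quantile normalization, no filter, no floor, the mean over probes, leaving out time labels, slide as a random block, no time label block, only pairs on 1 slide, and without the WS arrays. Chosen after seeing the data were only pairs scanned on 1 day, time label as a random block, leaving out each WS array, all other arrays of weeks 3 to 18 as reference, and only members with no saturated spot. Hspa1b, Adgre1, Lyz, Hbb-b2, Pkm and 18 assembly factors were not on the array by those symbols.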

Additional observations from a re-analysis of the deposited data

Results flagged for a closer look

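Within the HF5, HF20 and HF75 groups, the lowest and highest arrays were compared with their nearest neighbour for the median level of the members and for the median distance of each complex from its genes' own medians. These were 18 tests in 3 groups, chance marks about 1 in 20 such tests, and 4 stood out because 1 array lay far from the others of its group. The median level of the members on HF5 week 9 was 4.70, with the nearest other HF5 array at 3.70. The median distance of complex II on HF5 week 9 was 1.58, with the nearest at -0.31. The median distance of complex I on HF75 week 3 was -0.10, with the nearest at 0.06, and that of complex III on HF75 week 12 was -0.13, with the nearest at 0.00. The HF5 array is one of those with WS in the title, and the HF75 gaps are small on the log2 scale.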

How the results depend on the processing

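For HFC against LFC, HF5, HF20, late against early and the interaction, the count of members called was 0 under every alternative run (23, 17, 16, 21 and 20 alternatives). Medians of the members ran from -0.28 to 0.36 for HFC against LFC, from -0.24 to 0.18 for HF5, from 0.29 to 0.68 for HF20, from -0.11 to 0.17 for HF75, from -0.50 to 0.28 for late against early, from -1.62 to -0.84 for the interaction and from 0.87 to 1.15 for the WS arrays.

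With HF75 the count of 1 (Atp5k) stayed 1 in 5 of 15 alternatives. It was 0 after quantile normalization, without a filter, without day 14 and week 3, without the replicate block of time label (where 0 of all genes were called), with only the 2 of 5 pairs scanned on 1 day, and with only members saturated on no array, which leaves Atp5k out. Leaving out 1 time label gave 0 to 1, with 1 only without week 12. This comparison holds no day 14 array, so the fit without day 14 and week 3 repeats that without week 3, and both are counted. The cause was not tested, beyond the smaller number of pairs.

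For the WS arrays the count of 14 was 4 with normexp, 36 with quantile normalization, and 0 without a filter, with slide or time label as a random block, and with all other arrays of weeks 3 to 18 as reference. Leaving out a time label or a WS array gave 0 to 52. It was 10 without the floor, 10 with the mean over probes and 12 with only members saturated on no array. Over these alternatives 196 values of the 14 genes kept their direction, 66 past the threshold and 130 not. The cause was not tested.

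Normexp moved the median of all genes by over 0.1 to -0.22 for HF5, -0.32 for HF20, -0.17 for HF75, -0.16 for late against early, 0.48 for the interaction and 0.19 for the WS arrays, and quantile normalization to 0.23 for late against early and -0.39 for the interaction; member medians are read against these. Not run were only pairs on 1 slide for HF20 and HF75 (0 such pairs), week 9 left out of the WS comparison, since it holds all WS arrays, and day 14 and week 3 left out of it, since it does not hold them. Saturated spots limit the bright members and background the paralogs. Each group had 1 array per time label.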

Other observations

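The 2 arrays of week 18 whose labels conflict were kept out of all comparisons. On the first, with 21710 outlier spots, the median level of the members was 1.64, and 68 of 78 members with a value lay at least 2-fold below their own median over the 38 arrays. Sdha stood at -0.81, Ndufs1 at 0.51, Atp5b at 3.81 and Atp5k at 4.43, and the summed intensity of the adipocyte list was 64.0. On the second the member median was 3.09, with 4 of 84 members at least 2-fold below. Sdha stood at 1.29, Ndufs1 at 2.49, Atp5b at 6.00 and Atp5k at 5.20, and the adipocyte sum was 381.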
